A study of Homo sapiens with 6 samples.

Results

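G6PC3 and SLC37A4 are the phosphatase and the transporter that handle glucose-6-phosphate in the endoplasmic reticulum of most human cells. Both genes were followed in T24 cells, an established human bladder cancer line, after knockdown of circ235, a circular RNA formed from exons of CCNY. They were selected on the measured counts, because the transcripts of both were lower after knockdown with either siRNA, and they are 2 of the 58288 genes in the count table. The fall against the control is therefore a description here and carries no test. The cells were transfected with a negative control siRNA (NC) or with 1 of 2 siRNAs against circ235 (si-circ235-1 and si-circ235-2), and 2 biological replicates of each condition were sequenced. All libraries came from the single T24 line, no genotype or time after transfection is given in the labels, and each knockdown is a transient transfection. Libraries held 15373992 to 19912893 counts in genes, and 14415 genes passed the filter on low counts, including both G6PC3 and SLC37A4.

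Glucose-6-phosphate is made in the cytosol by hexokinases and has to cross the membrane of the endoplasmic reticulum before it can be hydrolysed there. SLC37A4, the glucose-6-phosphate translocase, carries it into the lumen in exchange for inorganic phosphate, and the active site of the phosphatase faces that lumen. Liver and kidney use the catalytic subunit G6PC1 to release glucose into blood, pancreatic islets carry G6PC2, and G6PC3 is the broadly expressed form. The pair G6PC3 and SLC37A4 also removes the phosphorylated form of anhydroglucitol, a food-borne sugar alcohol whose phosphate ester inhibits hexokinases, and loss of either gene in people causes neutropenia. In the same lumen H6PD oxidises glucose-6-phosphate and makes NADPH.

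In GENCODE 29 (GRCh38), G6PC3 (ENSG00000141349.8) lies on the plus strand of chromosome 17 at chr17:44070735-44076344, with 8 annotated transcripts of which 3 are protein coding. No annotated gene overlaps it. HDAC5 lies 401 bases away and LSM12 lies 3115 bases away, both on the opposite strand. SLC37A4 (ENSG00000137700.17 in the count table, ENSG00000137700.18 in GENCODE 29) lies on the minus strand of chromosome 11 at chr11:119024114-119030906, with 21 annotated transcripts of which 4 are protein coding. GENCODE 29 tags SLC37A4 as touched by an error in the reference genome, and the effect of that error on its counts was not tested. The 3' end of SLC37A4 overlaps TRAPPC4, a gene of the opposite strand.

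The 250 bases before a RefSeq start of each gene are shown, the listed start nearest to that of GENCODE 29. RefSeq listed 3 starts for G6PC3 and 2 for SLC37A4, and the windows of the other starts are not shown. Both genes were chosen for being lower in the same 4 libraries, and no link of that pattern to these sequences was tested. Both windows come from RefSeq (GRCh38.p14) and are written 5′ to 3′ on the gene's own strand. Capitals mark CACGTG, the core E-box bound by MYC and related factors. The RefSeq start used for SLC37A4 differs from that of GENCODE 29, and the end of the SLC37A4 window nearest the start lies inside the GENCODE 29 span of the gene.
G6PC3, chr17:44070485-44070734, plus strand: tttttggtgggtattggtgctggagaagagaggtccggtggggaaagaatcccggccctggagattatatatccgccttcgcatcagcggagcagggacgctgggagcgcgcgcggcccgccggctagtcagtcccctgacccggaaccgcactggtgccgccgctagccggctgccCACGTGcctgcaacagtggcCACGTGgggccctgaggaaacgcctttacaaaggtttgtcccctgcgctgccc
SLC37A4, chr11:119030878-119031127, minus strand: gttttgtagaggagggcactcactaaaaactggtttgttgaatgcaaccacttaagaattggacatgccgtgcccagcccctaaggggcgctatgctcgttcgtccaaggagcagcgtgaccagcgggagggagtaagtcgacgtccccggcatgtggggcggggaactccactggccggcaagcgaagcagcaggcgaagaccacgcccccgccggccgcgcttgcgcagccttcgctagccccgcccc
The G6PC3 window held 2 copies of CACGTG, starting 73 and 53 bases before the RefSeq start used. CACGTG reads the same on both strands, and 6.34% of 35116 RefSeq promoter windows of the same length, from 27305 genes, held it. The shorter word ACGTG, the core of the element bound by hypoxia-inducible factors, was searched on both strands and occurred 4 times, each of these lying inside a CACGTG. The SLC37A4 window held neither word. ACGTG was found in 18.5% of all windows. The windows were alike in base composition, with a GC content of 64.8% for G6PC3 and 63.2% for SLC37A4. These matches describe the letters of the windows only.

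The study set circ235 beside the microRNA miR-330-5p, so the mature sequence of this microRNA is shown with its seed, bases 2 to 8, in capitals, followed by the only stretch of the SLC37A4 coding transcript that pairs with the whole seed. Both are written 5′ to 3′.
miR-330-5p: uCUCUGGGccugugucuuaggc
SLC37A4, chr11:119027761-119027783, minus strand, coding exon: catccttgCCCAGAGctacagct
The word CCCAGAG, to which the seed pairs, did not occur in the 261 bases of the 3' UTR of G6PC3-201 or in the 559 bases of the 3' UTR of SLC37A4-217. It occurred in 20.5% of the 3' UTRs of 12146 tested genes, and in 6.22% of the 3199 with a 3' UTR of at most 600 bases. The capitals in the SLC37A4 line mark the word in its coding sequence. Over all annotated transcripts, untranslated parts and noncoding transcripts included, 1 of 8 of G6PC3 and 18 of 21 of SLC37A4 held the word.

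The level of G6PC3 is given in CPM, the counts of a gene scaled to a common library size, after TMM scaling, the correction for library composition made by edgeR. The 2 NC libraries gave 106 and 67.4 CPM, from 1610 and 1102 counts. With si-circ235-1 the level was 43.5 and 33.4 CPM, from 622 and 599 counts, and with si-circ235-2 it was 46.7 and 36.9 CPM, from 791 and 773 counts. All 4 si-circ235 libraries lay below both NC libraries, as they did for 11.3% of all genes tested, and both siRNAs were set against the same 2 NC libraries. In bulk RNA, fewer cells with a transcript and less of it per cell cannot be told apart. The spread of G6PC3 was widest within NC, whose replicate 1 stood well above replicate 2.

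The mean level of G6PC3 was 86.5 ± 27.1 CPM in NC, 38.5 ± 7.12 CPM with si-circ235-1 and 41.8 ± 6.87 CPM with si-circ235-2 (SD, n = 2 each). The log2 fold change against NC was -1.17 (SE 0.25) for si-circ235-1 and -1.05 (SE 0.25) for si-circ235-2, which are 0.445 and 0.483 of the NC level. Of all genes tested, 5.54% had a lower log2 fold change under si-circ235-1 and 9.51% under si-circ235-2. Without NC replicate 1 the log2 fold changes of G6PC3 were -0.81 and -0.69, and without NC replicate 2 they were -1.42 and -1.33. The size of the difference thus depended on which NC library was used, while the direction was the same with either.

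SLC37A4 was measured at 44.7 and 39.7 CPM in NC, from 681 and 649 counts. The level was 19.4 and 15.1 CPM with si-circ235-1, from 278 and 270 counts. It was 31.2 and 26.7 CPM with si-circ235-2, from 528 and 559 counts. The conditions formed 3 separate steps with no overlap between any 2 of them, NC highest, si-circ235-2 between and si-circ235-1 lowest. The share of all genes tested with such separate steps was not counted, so the steps are a description only.

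The mean level of SLC37A4 was 42.2 ± 3.54 CPM in NC, 17.3 ± 3.09 CPM with si-circ235-1 and 28.9 ± 3.13 CPM with si-circ235-2 (SD, n = 2 each). The log2 fold change against NC was -1.29 (SE 0.22) for si-circ235-1 and -0.54 (SE 0.22) for si-circ235-2, which are 0.409 and 0.686 of the NC level. A lower log2 fold change was found in 4.36% of all genes tested under si-circ235-1 and in 25.5% under si-circ235-2. With each library left out in turn, the log2 fold change of SLC37A4 ranged from -1.49 to -1.11 for si-circ235-1 and from -0.66 to -0.44 for si-circ235-2.

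**Figure D1:**
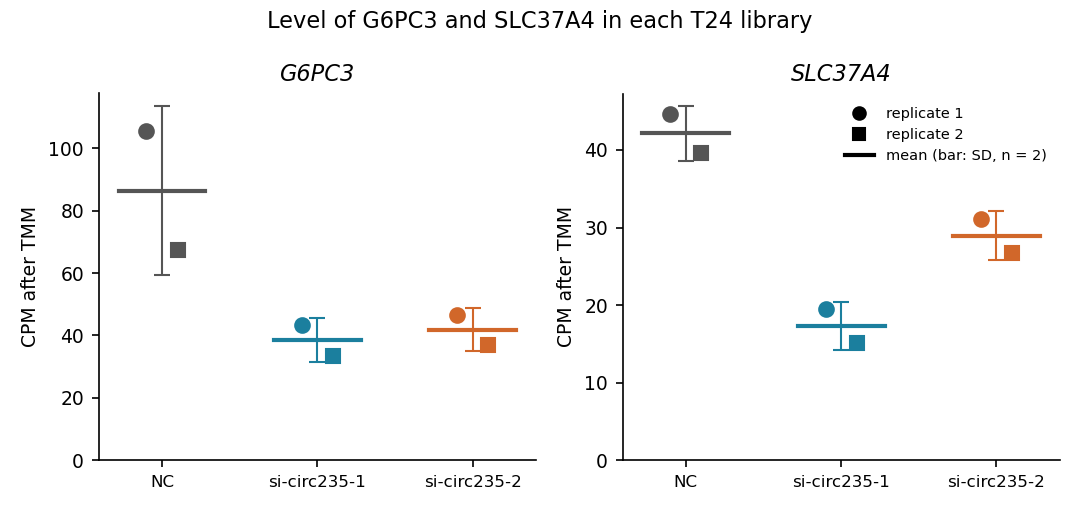
Level of G6PC3 (left) and SLC37A4 (right) in CPM after TMM scaling, in the 2 libraries each of NC, si-circ235-1 and si-circ235-2; circles are replicate 1, squares replicate 2, horizontal lines the mean and bars the SD (n = 2). The siRNA libraries of G6PC3 lie between 33.4 and 46.7 CPM under both siRNAs, whereas those of SLC37A4 lie at 15.1 and 19.4 CPM for si-circ235-1 and at 26.7 and 31.2 CPM for si-circ235-2.

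The siRNAs were then set against each other. NC is neither side of this difference, but the NC libraries share in the filter, the scaling and the estimate of spread behind its test. The choice of the genes asked only for a fall against NC, though earlier results of these data were known. In this comparison 39.7% of all genes tested passed an adjusted p of 0.05, 18.6% lower and 21.1% higher with si-circ235-2. G6PC3 differed by a log2 fold change of 0.12 (SE 0.25, 95% interval -0.43 to 0.67, edgeR quasi-likelihood test, adjusted p = 0.725), and its libraries overlapped between the siRNAs. The interval leaves room for a difference in either direction. SLC37A4 was higher with si-circ235-2 than with si-circ235-1, by a log2 fold change of 0.75 (SE 0.22, 95% interval 0.27 to 1.23, adjusted p = 0.0199 in edgeR). Both si-circ235-2 libraries were above both si-circ235-1 libraries, a separation whose share among all genes tested was not counted. SLC37A4 no longer passed when replicate 2 of si-circ235-1 was left out (0.57, adjusted p = 0.149 in edgeR) or when replicate 1 of si-circ235-2 was left out (0.63, adjusted p = 0.0764 in edgeR). Once the trend of levels with transcript length and GC content had been removed, the difference of SLC37A4 was 0.25 (adjusted p = 0.225 in edgeR), and that of G6PC3 turned to -0.19 (adjusted p = 0.521 in edgeR).

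**Figure D2:**
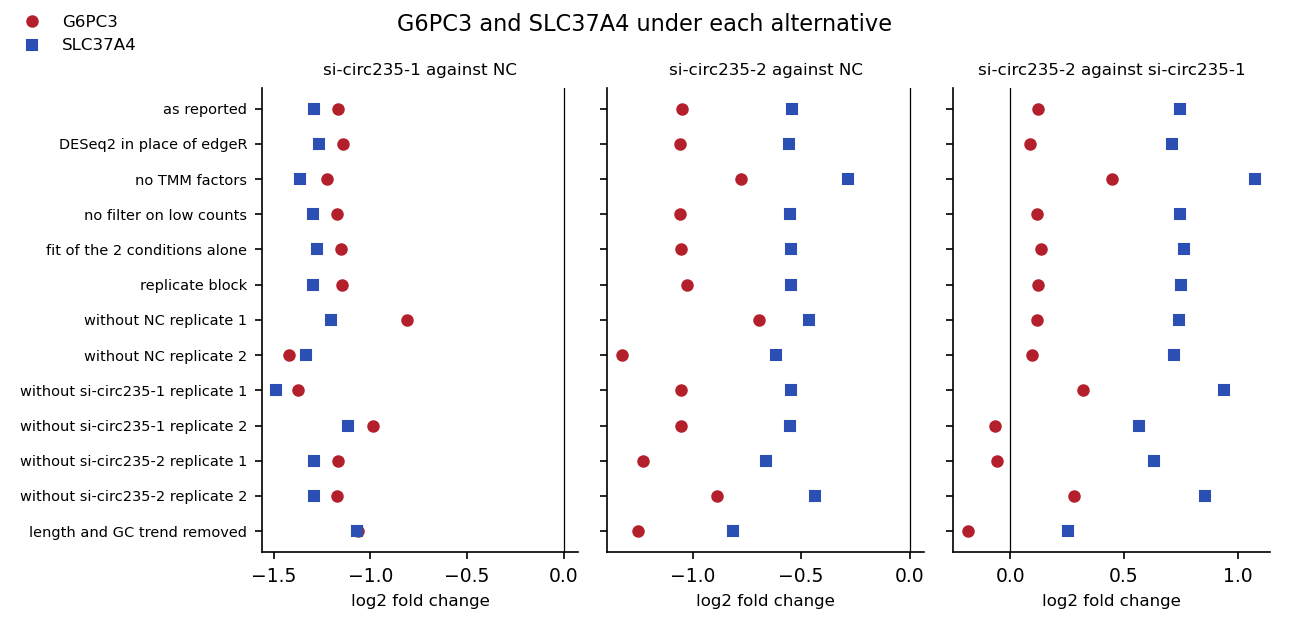
Log2 fold change of G6PC3 (circles) and SLC37A4 (squares) as reported and under each alternative, with 1 panel per comparison and a vertical line at 0. Both genes, chosen for being lower than NC in these libraries, stay below 0 against NC under every alternative shown. In the comparison of the siRNAs G6PC3 lies near 0 on either side and SLC37A4 runs from 0.25 to 1.08.

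Per kilobase of annotated exon, which allows levels of different genes to be set side by side, G6PC3 was the higher of the pair in every library. Its mean level in NC was 19.0 CPM per kb, above 83% of the genes tested, and that of SLC37A4 was 6.82 CPM per kb, above 64.7%. The ratio of the G6PC3 level to the SLC37A4 level was 3.21 and 2.31 in NC, 3.04 and 3.02 with si-circ235-1, and 2.04 and 1.88 with si-circ235-2. The si-circ235-2 libraries thus had the lowest ratios, and those of si-circ235-1 lay within the range of NC. Lengths of the longest transcripts in place of all exons raised the mean ratio of NC from 2.76 to 3.93.

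TRAPPC4 encodes a subunit of the trafficking complex TRAPP and runs opposite to SLC37A4 at chr11:119018432-119025454. The spans share chr11:119024114-119025454, 1341 bases, of which 544 are exonic in both genes. These make up 8.8% of the exon bases of SLC37A4 and 10.6% of those of TRAPPC4. The libraries carried no strand information, so reads of this stretch cannot be told apart between the genes.

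TRAPPC4 was at 69.1 and 64.5 CPM in NC, 88.8 and 101 CPM with si-circ235-1, and 44.9 and 34.4 CPM with si-circ235-2. It was thus highest where SLC37A4 was lowest. Its log2 fold change was 0.51 for si-circ235-1 (SE 0.19, adjusted p = 0.135 in edgeR) and -0.75 for si-circ235-2 (SE 0.20, adjusted p = 0.0155 in edgeR). Between the siRNAs TRAPPC4 differed by -1.26 (adjusted p = 0.00114 in edgeR), the opposite direction to SLC37A4. The count of TRAPPC4 was 1.55 and 1.63 times that of SLC37A4 in NC, 4.56 and 6.70 times with si-circ235-1, and 1.44 and 1.29 times with si-circ235-2. The part of shared reads in the level of SLC37A4 was not tested.

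The genes next to G6PC3 did not pass the test with si-circ235-1, at log2 fold changes of 0.02 for HDAC5, a histone deacetylase (adjusted p = 0.969 in edgeR), and 0.13 for LSM12 (adjusted p = 0.765 in edgeR). With si-circ235-2, HDAC5 was at -0.43 (adjusted p = 0.12 in edgeR) and LSM12 rose by 0.89 (adjusted p = 0.012 in edgeR). Besides TRAPPC4, the protein-coding genes RPS25, CCDC84 and HYOU1 lie within 20000 bases of SLC37A4. With si-circ235-1 they were at -0.37, -0.01 and -0.15 (adjusted p = 0.411, 0.978 and 0.779 in edgeR). With si-circ235-2 RPS25 fell by 1.69 (adjusted p = 0.00264 in edgeR). CCDC84 was then at -0.26 and HYOU1 at 0.48 (adjusted p = 0.388 and 0.211 in edgeR). CCNY, the host gene of circ235, encodes a cyclin of the cell membrane and was at 61.3 and 65.2 CPM in NC, 78.1 and 67.4 CPM with si-circ235-1, and 63.9 and 55.5 CPM with si-circ235-2. Its log2 fold change was 0.20 with si-circ235-1 (adjusted p = 0.533 in edgeR) and -0.08 with si-circ235-2 (adjusted p = 0.766 in edgeR; 0.17 without TMM scaling). circ235 itself has no poly(A) tail and was not measured in these libraries, so its knockdown could not be checked here.

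T24 is an epithelial tumour line, and the keratins KRT7, KRT8 and KRT18 were abundant in all 6 libraries. Of 14 urothelial and epithelial markers, these keratins, PPARG and EPCAM were the 5 above 1 CPM in all libraries. EPCAM was at only 1.28 to 2.93 CPM. PPARG was at 23.2 and 22.6 CPM in NC, 39.5 and 45.9 CPM with si-circ235-1, and 49.2 and 51.1 CPM with si-circ235-2. KRT19, KRT5 and TP63 had at most 4 counts in a library, and GATA3 was at 0.07 to 1.12 CPM. The urothelial differentiation markers KRT20 and UPK3A had no count in any of them, and UPK1B, UPK2 and the cadherin CDH1 were below 1 CPM. Of the 2 mesenchymal markers, VIM ran from 499 to 1499 CPM and was highest with si-circ235-1. The other, CDH2, was highest with si-circ235-2, at 7.85 and 7.55 CPM. It was at 4.33 and 3.91 CPM in NC and at 4.34 and 4.13 CPM with si-circ235-1. PTPRC and CD3E of leukocytes and ALB of hepatocytes had no count. The third leukocyte marker, CD14, was at 2.82 and 2.87 CPM in NC, 10.98 and 9.94 CPM with si-circ235-1, and 2.12 and 1.72 CPM with si-circ235-2, and the part of VIM and CD14 in the levels of G6PC3 and SLC37A4 was not tested.

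Paralogues of both genes were read next, to see whether G6PC3 and SLC37A4 are the forms these cells use. G6PC1 and G6PC2 had no count in any of the 6 libraries, which allows a level of up to 3 counts, or 0.21 CPM in the shallowest library after scaling (counting error only). Of the 3 catalytic subunits only G6PC3 was thus detected. SLC37A1, SLC37A2 and SLC37A3 belong to the same transporter family as SLC37A4. SLC37A3 was at 54.2 and 63.6 CPM in NC, 69.6 and 72.2 CPM with si-circ235-1, and 99.3 and 91.3 CPM with si-circ235-2.

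SLC37A3 was above both NC libraries under each siRNA, at 0.27 with si-circ235-1 (adjusted p = 0.385 in edgeR), and rose by 0.69 with si-circ235-2 (adjusted p = 0.0149 in edgeR; 0.32, no longer called, with the length and GC trend removed). SLC37A1, at 7.08 to 10.98 CPM, was at 0.49 and 0.39 (adjusted p = 0.247 and 0.257 in edgeR). SLC37A2, at 1.47 to 4.92 CPM, was at -0.11 and 0.89 (adjusted p = 0.904 and 0.133 in edgeR). None of these 3 relatives of SLC37A4 was called lower with either siRNA by edgeR or DESeq2, and none was lower at an unadjusted p under 0.05. Of all genes tested, edgeR called 3.64% lower with si-circ235-1 and 15.7% with si-circ235-2. For only 3 genes, the absence of such calls is therefore a description.

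H6PD draws on the same luminal glucose-6-phosphate that SLC37A4 delivers. It was at 14.5 and 15.6 CPM in NC, 11.1 and 11.6 CPM with si-circ235-1, and 22.9 and 24.2 CPM with si-circ235-2. The replicates of H6PD were close and the 3 conditions did not overlap, a separation whose share among all genes tested was not counted. H6PD was at -0.41 with si-circ235-1 (adjusted p = 0.275 in edgeR) and rose by 0.64 with si-circ235-2 (adjusted p = 0.0436 in edgeR), so that the siRNAs differed by 1.05 (adjusted p = 0.00391 in edgeR; 0.45, adjusted p = 0.0737, with the length and GC trend removed). HSD11B1, the luminal enzyme that uses the NADPH of H6PD, had at most 2 counts in a library.

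**Figure D3:**
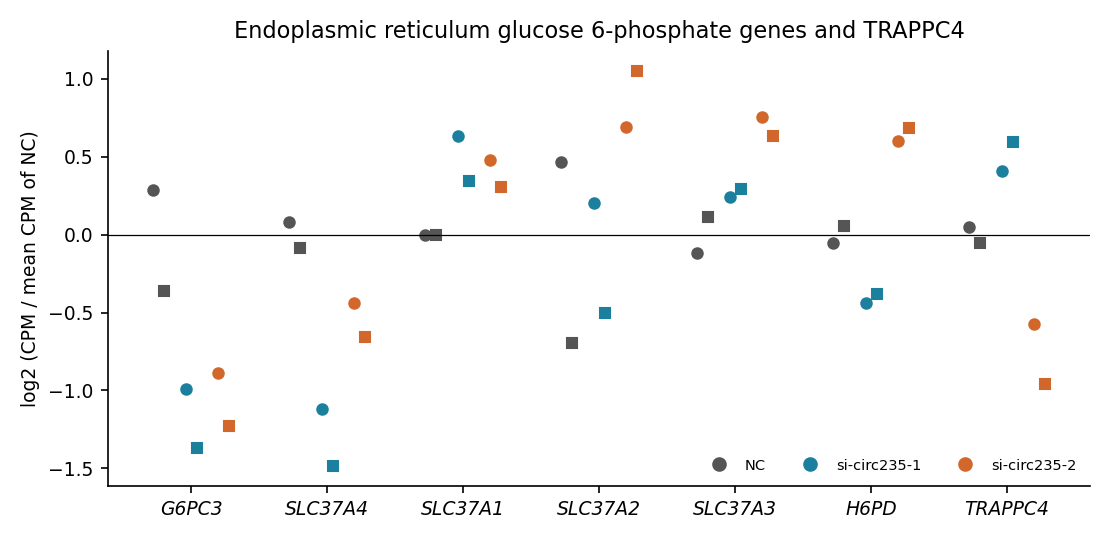
Level of each gene on a log2 scale relative to the mean CPM of NC, for the 2 libraries each of NC, si-circ235-1 and si-circ235-2; circles are replicate 1 and squares replicate 2. G6PC3 and SLC37A4, chosen for being lower, lie below 0 in all 4 si-circ235 libraries. SLC37A1 and SLC37A3 lie above 0 in all 4, and H6PD and TRAPPC4 lie on opposite sides for the 2 siRNAs. The shares of all genes tested that lie above 0 in all 4, or on opposite sides, were not counted.

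Beyond the pair, 63 genes of sugar phosphate handling were listed in groups A to G, and 44 of them were tested. With si-circ235-1, 3 of the 44 were called in edgeR (6.82%), 0 lower and 3 higher, against 5.88% of all genes tested, 3.64% lower and 2.24% higher. At an unadjusted p under 0.05, 3 of the 44 were lower, and DESeq2 called 1 lower. With si-circ235-2, 16 of the 44 were called (36.4%), 6 lower and 10 higher, against 31.4% of all genes, 15.7% lower and 15.7% higher. Between the siRNAs 16 were called, 7 lower and 9 higher with si-circ235-2, against the 39.7% given above. These shares were near those of all genes. The median log2 fold change of the 44 genes was 0.10 with si-circ235-1 and 0.18 with si-circ235-2, beside -0.03 and -0.00 for all genes tested. G6PC3 and SLC37A4 lay below these medians under both siRNAs, which was set by their choice as genes that fall and is a description only.

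The sugar kinases (group C) make the substrate that SLC37A4 carries. Of 4 tested, edgeR called 0 with si-circ235-1 (0 at an unadjusted p under 0.05 and 0 by DESeq2) and 2 with si-circ235-2, both higher. HK2, a hexokinase of many tumours, rose by 0.69 (adjusted p = 0.0385 in edgeR), and HKDC1, a hexokinase-like protein, by 1.06 (adjusted p = 0.0104 in edgeR). HK1, the hexokinase of most tissues, was at -0.17 and 0.11 (adjusted p = 0.597 and 0.649 in edgeR), and both signs turned when the length and GC trend was removed. HK3 had no count.

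Group D holds the other routes open to glucose-6-phosphate, the pentose phosphate pathway and glycogen. Of 14 genes tested, 1 was called with si-circ235-1, higher, and 5 with si-circ235-2, 3 lower and 2 higher. PGM2L1, which makes glucose bisphosphate, rose by 1.19 with si-circ235-1 (adjusted p = 0.0459 in edgeR) and by 1.08 with si-circ235-2 (adjusted p = 0.021 in edgeR). PGLS, the lactonase of the pentose phosphate pathway, fell by 1.41 with si-circ235-2 (adjusted p = 0.00476 in edgeR). With si-circ235-1 it was at 0.28 (adjusted p = 0.566 in edgeR). UGP2, which makes UDP-glucose for glycogen, fell by 0.57 with si-circ235-2 (adjusted p = 0.0472 in edgeR), and GBE1, the glycogen branching enzyme, rose by 0.62 (adjusted p = 0.0299 in edgeR).

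Group E holds gluconeogenesis and other sugar phosphate phosphatases. Of 9 genes tested, 1 was called with si-circ235-1 and 3 with si-circ235-2. TIGAR, a bisphosphatase, rose by 0.78 with si-circ235-1 (adjusted p = 0.0458 in edgeR). With si-circ235-2, PFKFB3 rose by 1.65 (adjusted p = 0.00187 in edgeR) and PFKFB2 by 0.90 (adjusted p = 0.00582 in edgeR), while PGP, which clears the phosphates of side products of glycolysis, fell by 0.88 (adjusted p = 0.0152 in edgeR). The gluconeogenic genes FBP1 and PCK1 had no count, as G6PC1 had none.

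In group F, the glucose transporters, edgeR called 0 of 5 tested genes with si-circ235-1 (1 at an unadjusted p under 0.05 and 0 by DESeq2) and 1 with si-circ235-2. This was SLC2A8, a transporter of internal membranes, which fell by 0.97 (adjusted p = 0.00526 in edgeR), whereas SLC2A1, the main carrier of the plasma membrane, was at 0.11 and 0.30 (adjusted p = 0.806 and 0.342 in edgeR). In group G, hexosamine and mannose phosphate steps, 1 of 8 was called with si-circ235-1 and 3 with si-circ235-2. With si-circ235-1, 4 of the 8 passed an unadjusted p under 0.05 in edgeR, 2 of them lower, and DESeq2 called 3, 1 of them lower. GFPT1, the entry enzyme of the hexosamine pathway, rose by 0.91 under both siRNAs (adjusted p = 0.0205 and 0.00523 in edgeR). With si-circ235-2, GNPNAT1 of the same pathway rose by 1.24 (adjusted p = 0.00461 in edgeR) and PMM1, a phosphomannomutase, fell by 0.61 (adjusted p = 0.0494 in edgeR).

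Of the calls with si-circ235-2, those of H6PD, HK2, UGP2, GBE1 and PMM1 were each lost under at least 6 of the 12 alternatives, whereas that of PFKFB3 passed under all 12. With the length and GC trend removed, the calls of SLC37A3, H6PD, HK2, GBE1, PMM1, PFKFB2 (0.26), PGP (-0.45) and SLC2A8 (-0.35) with si-circ235-2 were lost, and PGLS was at -0.70 and still called. The 3 calls with si-circ235-1 (PGM2L1, TIGAR and GFPT1) were each lost when any 1 of the NC or si-circ235-1 libraries was left out and when TMM scaling was omitted. With si-circ235-2 the number called fell to 2 when NC replicate 1 was left out, the library in which G6PC3 was also highest.

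**Figure D4:**
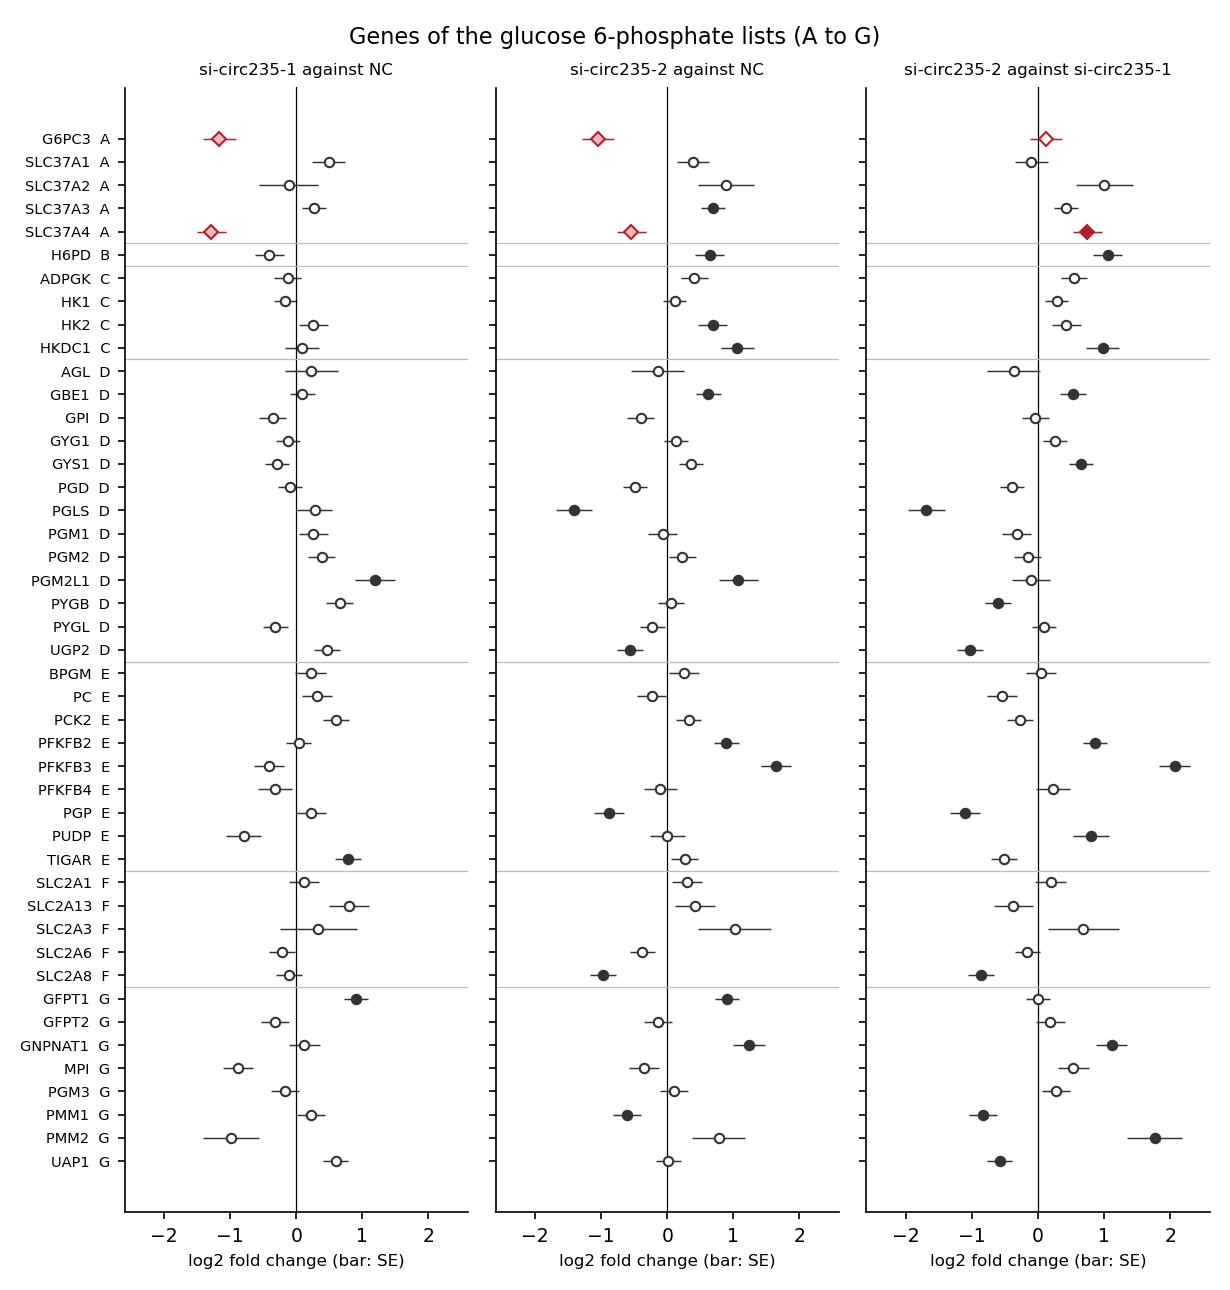
Log2 fold change with its SE (bars) for G6PC3 and SLC37A4 (diamonds) and other tested genes of the groups (circles), with the group letter A to G beside each name and 1 panel per comparison. Filled black circles and the filled diamond passed an adjusted p of 0.05, open symbols did not, and the pale diamonds are the comparisons with NC in which G6PC3 and SLC37A4 were not tested; with si-circ235-1 the 3 filled circles are all above 0.

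The course of G6PC3 and SLC37A4 over the 6 libraries was compared with that of all other tested genes by the root mean square difference of their log2 CPM, each gene centred on its own mean. Because both were selected for being lower with both siRNAs in these libraries, a course closer to each other than to most genes was set by the choice. G6PC3 and SLC37A4 differed by 0.302, against a median of 0.701 between G6PC3 and all genes and 0.687 between SLC37A4 and all genes. SLC37A4 ranked 391 among the genes most like G6PC3, and G6PC3 ranked 513 among those most like SLC37A4. Their Pearson correlation was 0.852 over the 6 libraries, which share 3 conditions and a common scaling, so the value is a description only.

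The 5 genes nearest to G6PC3 were POLR2J4 (0.0368), SPEG (0.0684), ALG3 (0.0728), BTBD2 (0.0837) and CAPNS1 (0.0877). ALG3 is a mannosyltransferase of the endoplasmic reticulum, CAPNS1 is the small subunit of calpains, and POLR2J4 and SPEG had mean levels of only 2.42 and 2.09 CPM. The 5 nearest to SLC37A4 were LRRC46 (0.0567), SUMF2 (0.0656), PSKH1 (0.0695), CIZ1 (0.0710) and GAS2L1 (0.0734), of which SUMF2 is a protein of the endoplasmic reticulum lumen. The nearest genes of G6PC3 were lower by similar amounts under both siRNAs, from -1.25 to -1.05 with si-circ235-1 and from -1.15 to -0.98 with si-circ235-2. Those of SLC37A4 were lower mainly with si-circ235-1, from -1.39 to -1.17, and lay between -0.52 and -0.42 with si-circ235-2. All of these genes were picked for a like course in the same 6 libraries, so fold changes near those of G6PC3 or SLC37A4 were set by the choice. Ranking by Pearson correlation in place of the difference kept 1 of the 5 genes for each, POLR2J4 for G6PC3 and SUMF2 for SLC37A4.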

How the data were processed

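RNA enriched on oligo dT beads was sequenced from T24 cells of the NC, si-circ235-1 and si-circ235-2 conditions, 2 libraries each. The authors deposited raw counts per gene as whole numbers. The submitters' processing notes name FastQC, cutadapt, STAR and hg38, while versions and the counter were not given in the sources used here. Libraries were sequenced without strand information. Libraries held 15373992 to 19912893 counts. The sample titles gave conditions and replicates (siControl, siRNA1 and siRNA2 were read as NC, si-circ235-1 and si-circ235-2), and columns were matched by name. Replicates of a condition differed beyond sampling noise (chi-square per degree of freedom 23.4 to 34.9).

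The quasi-likelihood test of edgeR 4.0.16 (R 4.3.3) was fitted to all 6 libraries, with 1 mean per condition, filterByExpr and TMM, and p-values were adjusted over 14415 genes by Benjamini-Hochberg (threshold 0.05). The script was tested on simulated data. The prior count of log2 CPM was 2. Alternatives were DESeq2 1.42.0, no TMM scaling, no filter, fits of 2 conditions, a replicate block, omission of each library, and removal of a spline trend (5 degrees of freedom) over length and GC content. G6PC3 and SLC37A4, the lists and the tests were chosen with earlier results of these data known, so no p-value is given for the pair against NC. Genes named were the pair, all of groups A and B, at most 4 called genes of each of groups C to G per comparison by size of change, TRAPPC4 as the overlapping gene, the 5 genes most like each of the pair, and CCNY. HDAC5, LSM12, RPS25, CCDC84, HYOU1, HK1, HK3, SLC2A1, FBP1 and PCK1 fall outside this rule and were named after their values were seen. Some listed genes are counted in their groups but not reported here by name. Coordinates came from GENCODE 29 (GRCh38), which may not be the annotation the authors used and held 99.55% of the gene identifiers (version ignored). Sequences came from RefSeq (GRCh38.p14), in which both genes and the microRNA were found.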

Additional observations from a re-analysis of the deposited data

Results flagged for a closer look

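The siRNAs differed from each other for SLC37A4 by a log2 fold change of 0.75 (si-circ235-2 against si-circ235-1, adjusted p = 0.0199 in edgeR), from -1.29 and -0.54 against NC. For 4 other genes the siRNAs differed and all libraries of one siRNA lay above NC and all of the other below. The share of all genes tested with that pattern was not counted. H6PD differed by 1.05 (adjusted p = 0.00391 in edgeR), from -0.41 and 0.64 against NC, and by 0.45 once the length and GC trend had been taken out (adjusted p = 0.0737 in edgeR). UGP2 differed by -1.03 (adjusted p = 0.00257 in edgeR), from 0.46 and -0.57. GYS1, the glycogen synthase of most tissues, differed by 0.65 (adjusted p = 0.0167 in edgeR), from -0.29 and 0.36, and its value with si-circ235-1 became 0.02 with the length and GC trend removed. The difference of GYS1 no longer passed when replicate 2 of si-circ235-1 was left out (0.56, adjusted p = 0.116 in edgeR) or when replicate 1 of si-circ235-2 was left out (0.59, adjusted p = 0.077 in edgeR). TRAPPC4 differed by -1.26 (adjusted p = 0.00114 in edgeR), from 0.51 and -0.75. With 2 libraries per condition, single libraries were not tested for standing apart.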

How the results depend on the processing

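Against NC, the log2 fold changes of G6PC3 and SLC37A4 stayed below 0 under all alternatives run. Both genes were chosen for this direction in the same libraries, so it is a description only. With the length and GC trend removed, SLC37A4 was at -1.07 with si-circ235-1 and -0.81 with si-circ235-2, and without TMM scaling it was at -0.28 with si-circ235-2. Leaving out 1 library gave -1.42 to -0.81 and -1.33 to -0.69 for G6PC3, and -1.49 to -1.11 and -0.66 to -0.44 for SLC37A4. Between the siRNAs, leaving out 1 library gave -0.066 to 0.32 for G6PC3, and was below 0 when replicate 2 of si-circ235-1 (-0.066) or replicate 1 of si-circ235-2 (-0.059) was absent, and it gave 0.57 to 0.94 for SLC37A4. With the trend removed these differences were -0.19 and 0.25. The causes were not tested.

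With si-circ235-1, 847 genes were called (524 lower, 323 higher), and 1519 by DESeq2, 1678 without the filter, 1642 from 2 conditions alone and 1967 with the trend removed (778 lower, 1189 higher). Genes called in groups A to G numbered 3, and 7, 0, 5 and 11 by DESeq2, without TMM scaling, without the filter and with the trend removed. Without TMM scaling the median of all genes moved to -0.11, 0.25 and 0.37 in the 3 comparisons, and the lower and higher calls were 529 and 179, 1294 and 3173, and 1496 and 4534, beside 524 and 323, 2260 and 2270, and 2678 and 3047. Leaving out 1 library gave 0 to 1482 calls with si-circ235-1 (0 without si-circ235-1 replicate 2, where edgeR gave 2110 genes at an unadjusted p under 0.05), 769 to 4240 with si-circ235-2 (769 without NC replicate 1) and 2817 to 5558 between the siRNAs (2817 without si-circ235-1 replicate 2). In groups A to G it gave 0 to 4, 2 to 12 and 9 to 15 calls, beside 3, 16 and 16. Where a condition was left with 1 library, that library was taken to vary like the others.

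The labels give the same replicate numbers to each condition but do not say that they mark a shared batch, and the replicate differences correlated at -0.09, 0.15 and 0.14 between conditions. With the replicate number as a block, 937, 4750 and 6043 genes were called in the 3 comparisons, 3, 17 and 20 of groups A to G, and the siRNAs differed by 0.12 for G6PC3 (adjusted p = 0.566 in edgeR) and 0.75 for SLC37A4 (adjusted p = 0.0118 in edgeR), so that no call on either gene changed. Depth was 270 counts or more for both genes in every library, so precision is set by the 2 libraries per condition.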
